A study of Mus musculus with 3 samples.

Results

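The 7 genes described here are Cybb, Cyba, Ncf1, Ncf4 and Rac2, which encode 5 proteins of the phagocyte NADPH oxidase, together with Nos2 and Arg1, which encode 2 enzymes that consume arginine. They were taken by symbol from 55536 annotated genes, of which 22028 are protein coding, and each symbol matched a single gene identifier. The cells were primary macrophages grown from the bone marrow of C57BL/6J mice. Lipid A, the membrane anchor of bacterial lipopolysaccharide and its part sensed by the receptor TLR4, was given at 100 ng/ml and left for 10 min. RNA that stays with chromatin during cell fractionation was sequenced after depletion of ribosomal RNA. This fraction is rich in transcripts that are still being made or spliced. The series holds 1 group of 3 biological replicates, made from 1 µg, 250 ng and 500 ng of RNA for replicates 1, 2 and 3. No unstimulated library is used here, so a level does not show whether a gene responded to Lipid A. The labels give a single donor entry for all libraries, so the spread between replicates may be partly technical, and amount of RNA and replicate cannot be told apart.

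The phagocyte oxidase moves electrons from NADPH across a membrane to oxygen and so makes superoxide, which phagocytes use against engulfed microbes. Cybb encodes gp91phox, the catalytic chain, and Cyba encodes p22phox, its membrane partner. In a resting cell Ncf1 (p47phox, the organizer) and Ncf4 (p40phox, which binds a phosphoinositide on phagosomes) lie in the cytosol, and they join the membrane chains on activation together with the GTPase Rac2 or Rac1. Nos2 encodes the inducible nitric oxide synthase, a classical late product of endotoxin and interferon-gamma treatment in mouse macrophages. Arg1 encodes arginase 1, which turns arginine into ornithine and urea and is a classical product of interleukin-4 treatment.

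The start regions of Cybb and Ncf1 are shown because PU.1 and interferon regulatory factors are well-known regulators of phagocyte oxidase genes, and motifs of these factors were searched in them. RefSeq promoter sequences (GRCm38.p6, the build of the deposited files) were matched for 3 of the 7 genes, Cybb, Cyba and Ncf1. Each line runs 5′ to 3′ on the minus strand of the chromosome, which is the coding strand of both genes, from 250 bases before the annotated start to 25 bases after it. Capitals mark matches of GAAANNGAA, an interferon regulatory factor motif, on either strand. The Cybb window is chrX:9469300-9469574 and the Ncf1 window is chr5:134229601-134229875. The Cybb start, chrX:9469324, is that of its main coding transcript Cybb-201. It lies inside the annotated span of the gene, which reaches further upstream to chrX:9487771.
Cybb: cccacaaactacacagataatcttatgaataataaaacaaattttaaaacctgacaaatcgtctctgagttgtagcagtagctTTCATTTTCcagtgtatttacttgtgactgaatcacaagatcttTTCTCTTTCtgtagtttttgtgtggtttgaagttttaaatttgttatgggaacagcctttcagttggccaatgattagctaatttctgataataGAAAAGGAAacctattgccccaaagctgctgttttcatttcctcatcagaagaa
Ncf1: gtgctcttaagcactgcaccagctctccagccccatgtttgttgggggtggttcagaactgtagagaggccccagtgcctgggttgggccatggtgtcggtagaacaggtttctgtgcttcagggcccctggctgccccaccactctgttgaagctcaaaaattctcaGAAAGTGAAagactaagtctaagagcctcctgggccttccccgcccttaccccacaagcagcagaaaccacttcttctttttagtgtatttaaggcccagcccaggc
The Cybb window held 3 matches, which begin at positions -167, -123 and -29 from the start, and the Ncf1 window held 1, which begins at -82. The Cyba window of the same length (chr8:122432916-122433190) held none. At least 1 such match was present in 7.88% of all 32851 promoter windows of this length. GAGGAA, the core of the PU.1 motif, matched once in Cybb, at position 10 after the start on the opposite strand, and is present in 25.5% of all windows. CCAAT matched once in Cybb at -56 (35.8% of all windows), TGANTCA, the AP-1 motif, once in Cybb at -139 (7.35%), and TTCNNNGAA, the STAT motif, once in Ncf1 at -88 (7.71%), where it overlaps the interferon regulatory factor match. TATAAA (13.0%) and the kappaB motif (7.84%) matched in none of the 3 windows, and Cyba held none of the 7 motifs searched on both strands. The windows of Cybb, Ncf1 and Cyba held 33.8%, 54.5% and 59.6% G or C, against a median of 52.4% over all windows. These matches describe letters and do not show binding.

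The 5 oxidase genes lay between percentiles 82.6 and 96.8 of protein-coding genes, whereas Arg1 was low and Nos2 was below the detection level. By mean TPM, a length-normalized abundance of transcripts, the order was Ncf1, Ncf4, Cybb, Cyba, Rac2, Arg1 and Nos2. A gene was counted as detected when no library had it below 1 TPM. This held for 6 of the 7 genes, all but Nos2, and for 45.9% of protein-coding genes. In the second transcript table, which the authors derived directly from the reads, 6 of the 7 genes were again detected, against 55.1% of protein-coding genes. The count was also 6 at 0.5 TPM (49.7% of protein-coding genes), with TPM rescaled over longer RNAs (51.1%) and without replicate 1 (46.2%), 2 (46.2%) or 3 (47.5%). It was 5 at 5 TPM (31.6%) and with protein-coding transcripts only (41.3%), and in both cases Arg1 dropped out.

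**Figure D1:**
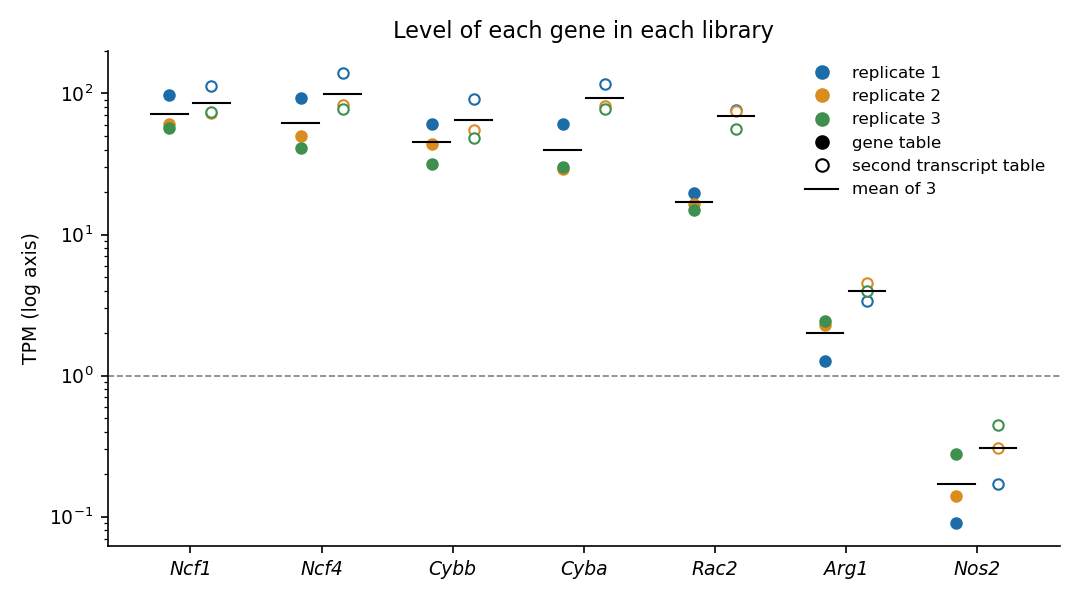
TPM of the 7 genes on a log axis in replicates 1 to 3, from the gene table (filled points) and from gene sums of the second transcript table (open points), with the mean of 3 libraries as a line and the detection level of 1 TPM dashed. The 5 oxidase genes lie above 14 TPM in every library of the gene table, and Nos2 lies below 1 TPM in every library of both tables.

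The genes of the membrane chains, Cybb and Cyba, had overlapping ranges of TPM. Cybb (ENSMUSG00000015340.10, chrX:9435252-9487771, minus strand, mm10) had 60.75, 44.03 and 31.7 TPM in replicates 1, 2 and 3, a mean of 45.5 ± 14.6 (SD, n = 3), from 1782, 1562 and 1142 estimated counts. It lay at percentile 93.6 of protein-coding genes by mean TPM. Its values were highest in replicate 1 and lowest in replicate 3. Cyba (ENSMUSG00000006519.11, chr8:122424776-122432930, minus strand) had 60.52, 28.94 and 30.08 TPM, a mean of 39.8 ± 17.9 (SD, n = 3), from 449, 251 and 260 counts, at percentile 92.4. Replicate 1 stood above the other libraries. The difference Cybb minus Cyba in log2(TPM + 1) was 0.01, 0.59 and 0.07 in the 3 libraries, a mean of 0.22 ± 0.32 (SD, n = 3; exact permutation of signs, two-sided p = 0.25, Benjamini-Hochberg adjusted p = 0.25 over 4 gene pairs). With 3 libraries this test cannot give a p below 0.25. The difference was within the spread between replicates, and it was -0.53 ± 0.18 (SD, n = 3) in the second transcript table, where Cyba was the higher gene in each library. It was also -0.80 when only protein-coding transcripts were summed, so the order of these genes differed with the table and the transcripts used.

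The cytosolic subunits Ncf1 and Ncf4 had the highest TPM of the 5 oxidase genes in the gene table. Ncf1 (ENSMUSG00000015950.13, chr5:134220053-134229625, minus strand) had 97.41, 60.97 and 57.12 TPM, a mean of 71.8 ± 22.2 (SD, n = 3), from 2433, 1937 and 1802 counts, at percentile 96.8. Ncf4 (ENSMUSG00000071715.12, chr15:78244801-78262580, plus strand) had 93.23, 49.79 and 40.93 TPM, a mean of 61.3 ± 28.0 (SD, n = 3), from 804, 512 and 465 counts, at percentile 95.8. Replicate 1 was the highest library for both. Their ranges overlapped, and Ncf1 was the higher gene in 3 of 3 libraries. The difference Ncf1 minus Ncf4 was 0.06, 0.29 and 0.47 in log2(TPM + 1), a mean of 0.27 ± 0.20 (SD, n = 3; exact sign-flip permutation p = 0.25, adjusted p = 0.25). With protein-coding transcripts only it was 1.2 ± 0.31 (SD, n = 3). In the second transcript table it was -0.18 ± 0.12 (SD, n = 3), the opposite direction.

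Part of Ncf1 lies opposite another gene. Gtf2ird2, a gene related to a general transcription factor, is on the plus strand and overlaps 408 of the 3663 exon bases of Ncf1 (11.1%). Its level was 20.85, 15.9 and 12.88 TPM in replicates 1, 2 and 3, lower than Ncf1 in each. The sources used here do not give the strand setting of the counting, and reads from these bases could be assigned to either gene. Of the 31-base words of the Ncf1 transcripts, 9.84% occur in another gene when both strands are read, and 326 of these 363 words are shared with Gtf2ird2. The spread from read assignment that the authors deposited for the Ncf1 count was at most 1.32 counts. The span of Cyba lies inside that of Gm20388, an annotated gene on the opposite strand with 2.68, 0.71 and 1.57 TPM, and shares 0 exon bases with it. Cybb, Ncf4, Nos2 and Arg1 shared none of their 31-base words with another gene.

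In the gene table, Rac2 had the lowest level of the 5 oxidase genes and the smallest spread. Rac2 (ENSMUSG00000033220.7, chr15:78559167-78572783, minus strand) had 19.71, 16.54 and 14.9 TPM, a mean of 17.1 ± 2.45 (SD, n = 3), from 382, 426 and 289 counts, at percentile 82.6. Its highest value was below the lowest value of Cyba. Rac1, the broadly expressed relative that can also serve the oxidase, had 15.2, 9.45 and 8.71 TPM, a mean of 11.1 ± 3.55 (SD, n = 3). The difference Rac2 minus Rac1 was 0.35, 0.75 and 0.71 in log2(TPM + 1), a mean of 0.60 ± 0.22 (SD, n = 3; exact sign-flip permutation p = 0.25, adjusted p = 0.25), so Rac2 was higher in 3 of 3 libraries. It was 0.27 ± 0.09 in the second transcript table and 0.25 ± 0.23 with the main coding transcript of each gene alone (SD, n = 3). Of the gene table TPM of Rac2, 48.8% came from Rac2-203, a model of 254 bases with 8.34, 6.73 and 8.27 counts. On CPM (counts normalized to library size, not divided by length), the mean difference was -0.02 ± 0.06 in log2(CPM + 1) (SD, n = 3). Rac2 shared 4.42% of its 31-base words with other genes, and Rac1 was not among the 3 genes that shared the most.

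Rac1 and 3 further genes that serve the oxidase were detected, as were 45.9% of protein-coding genes. Cybc1, which encodes the chaperone of the membrane chains, had 17.7 ± 4.29 TPM. Rap1a, a small GTPase found with the membrane chains, had 13.8 ± 1.31 TPM. Hvcn1, the proton channel that balances the charge moved by the oxidase, had 7.81 ± 2.03 TPM (each SD, n = 3). The median of the 7 genes described here was 39.8 TPM.

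Nos2 gave few counts. Nos2 (ENSMUSG00000020826.8, chr11:78920787-78960254, plus strand) had 5, 10 and 19 counts in replicates 1, 2 and 3, or 0.09, 0.14 and 0.28 TPM, a mean of 0.17 ± 0.0985 (SD, n = 3), at percentile 42.9. The 95% Poisson intervals of these counts were 1.62 to 11.7, 4.8 to 18.4 and 11.4 to 29.7. They hold counting error only, because the tables count reads, and several reads may be copies of 1 molecule. Each count was above 3, about the one-sided 95% Poisson limit for a count of 0, which also holds counting error only. In the second transcript table Nos2 had 16, 35 and 44 counts and 0.308 ± 0.138 TPM (SD, n = 3).

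Arg1 was low but above Nos2 in each library. Arg1 (ENSMUSG00000019987.9, chr10:24915221-24927484, minus strand) had 11, 16 and 21 counts, or 1.26, 2.29 and 2.45 TPM, a mean of 2.0 ± 0.646 (SD, n = 3), at percentile 56.3. The Poisson intervals of its counts were 5.49 to 19.7, 9.15 to 26.0 and 13.0 to 32.1. The TPM ranges of Arg1 and Nos2 did not overlap. The difference Nos2 minus Arg1 was -1.05, -1.53 and -1.43 in log2(TPM + 1), a mean of -1.34 ± 0.25 (SD, n = 3; exact sign-flip permutation p = 0.25, adjusted p = 0.25). In log2(CPM + 1) it was -0.25 ± 0.15 (SD, n = 3), and per library the Poisson intervals of the counts of the genes overlapped. When only protein-coding transcripts were summed it was -0.27 and Arg1, at 0.407 ± 0.0961 TPM (SD, n = 3), was no longer detected. The CPM and the coding sums of both genes lie near or below the pseudocount of 1, which makes these differences smaller. Without a pseudocount, the log2 ratio of Arg1 to Nos2 in gene table TPM was 3.66 ± 0.47 (SD, n = 3), from the few counts given above.

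**Figure D2:**
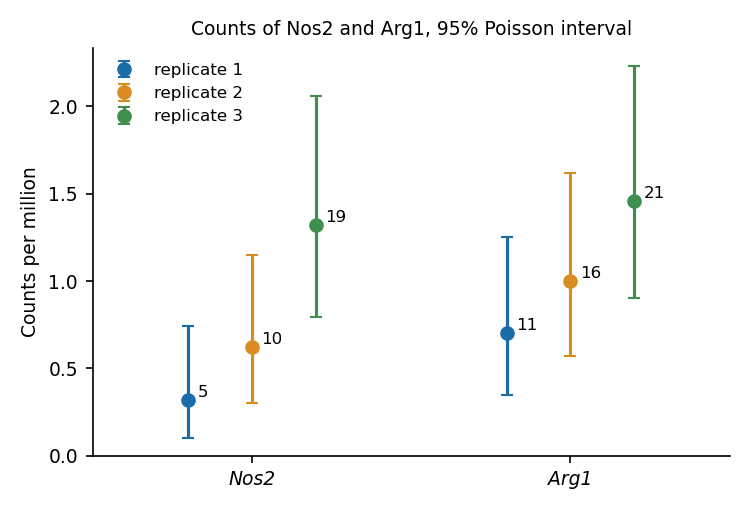
CPM of Nos2 and Arg1 in replicates 1 to 3, with 95% Poisson intervals as bars and the estimated count printed beside each point. Replicate 1 had the fewest counts of both genes (5 and 11) and replicate 3 the most (19 and 21), and the intervals of Nos2 and Arg1 overlap within each library.

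The annotated makeup of these genes was examined next, because chromatin RNA holds unspliced and partly spliced molecules. GENCODE M21 lists transcripts of the type retained intron for Cybb, Ncf1, Ncf4 and Arg1, and none for Cyba, Rac2 and Nos2. Such transcripts held 59.9% ± 5.08 of the TPM of Cybb, 36.3% ± 2.76 of Ncf1, 68.0% ± 3.00 of Ncf4 and 78.1% ± 8.54 of Arg1 (SD, n = 3). The median share over all 6523 genes that had such a transcript and reached 1 TPM was 46.6% ± 2.31 (SD, n = 3). Cybb, Ncf4 and Arg1 were above this median in each library and Ncf1 was below it in each library. These shares go by annotated type only. Ncf1-205, annotated as coding, holds intron 10 of the main coding transcript whole (161 bases) and is left out of the share of Ncf1. It held 16.6% ± 1.76 of the TPM and 24.7% ± 2.95 of the counts of Ncf1 (SD, n = 3). In the second transcript table the shares were 58.3% ± 14.9, 50.5% ± 5.61, 75.6% ± 3.84 and 70.4% ± 4.95 in the same order (SD, n = 3), around a median of 44.5% ± 1.62. There Ncf1 was above the median in each library, and Cybb was below it in replicate 1 with 41.3%.

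Most of these transcripts are short, and a short transcript gives many TPM per count. As a share of counts, retained intron transcripts held 16.0% ± 2.60 of Cybb, 10.3% ± 1.40 of Ncf1, 37.3% ± 5.74 of Ncf4 and 46.7% ± 9.97 of Arg1 (SD, n = 3). A median over all genes was not taken on this scale, so these shares have no background to be set against. The full-length transcript Cybb-201, with 13 exons and 4752 bases, held 38.0% of the TPM of Cybb but 83.8% of its counts. Cybb-202 (928 bases) and Cybb-203 (566 bases) held 33.8% and 26.1% of the TPM. Rac2 shows the same gap between the scales without a retained intron. Rac2-203, a coding model of 254 bases, held 48.8% ± 6.30 of the TPM of Rac2 but 2.21% ± 0.641 of its counts, whereas Rac2-201 (3038 bases, 7 exons) held 45.1% ± 5.95 of the TPM and 96.7% ± 0.877 of the counts (SD, n = 3). Every Nos2 count was assigned to the coding transcript Nos2-201, with 27 exons. For Cyba, Cyba-201 held 77.0% ± 3.54 and the processed transcript Cyba-203 held 16.7% ± 1.46 of the TPM (SD, n = 3), and Cyba-203 held 43.4% ± 3.03 in the second transcript table.

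**Figure D3:**
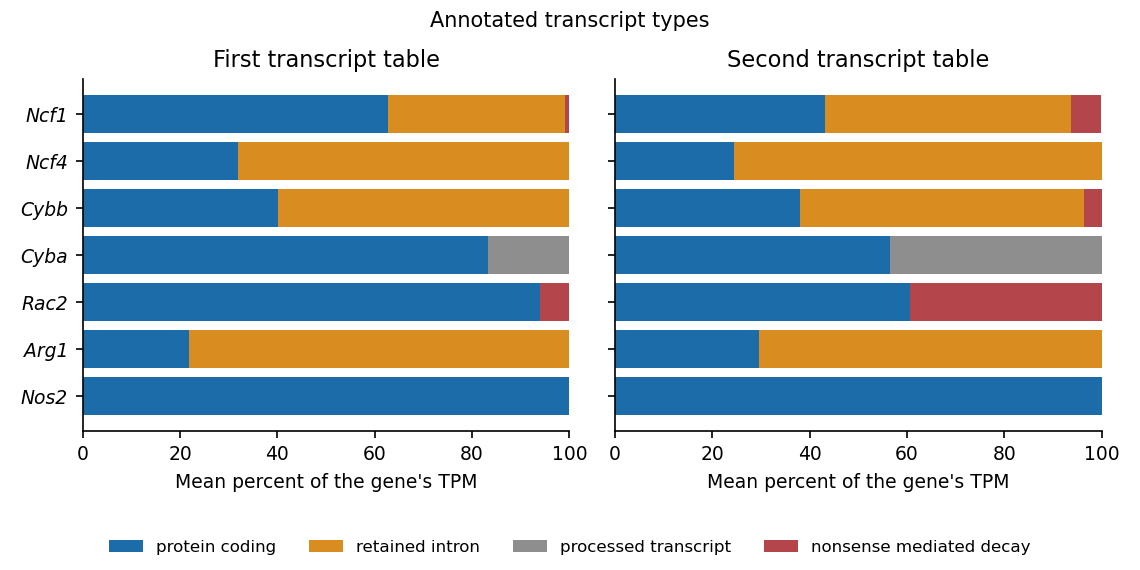
Mean percent of the TPM of each gene in each annotated transcript type, over 3 libraries, in the first transcript table (left) and the second (right). Retained intron transcripts make up most of the TPM of Ncf4, Cybb and Arg1 in both tables, and Nos2 is wholly in a coding transcript.

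The junctions of the retained intron transcripts with the highest mean TPM in the first transcript table (1 each for Cybb, Ncf1 and Arg1, 2 for Ncf4) are shown so that the intron bases behind these shares can be read. Each line runs 5′ to 3′ on the coding strand in mm10, from the GENCODE M21 transcript, with exon bases in lower case and intron bases in capitals. Introns are numbered along the main coding transcript of the gene.
Cybb-202, intron 3: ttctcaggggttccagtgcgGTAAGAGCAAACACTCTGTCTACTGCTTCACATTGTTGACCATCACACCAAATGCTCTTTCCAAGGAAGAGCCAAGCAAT
Ncf1-203, intron 2: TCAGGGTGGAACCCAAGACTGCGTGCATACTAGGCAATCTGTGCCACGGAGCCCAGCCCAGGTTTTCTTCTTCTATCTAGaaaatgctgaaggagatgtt
Ncf4-204, intron 8: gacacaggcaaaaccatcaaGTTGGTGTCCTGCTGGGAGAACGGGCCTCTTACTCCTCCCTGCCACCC
Ncf4-206, intron 8: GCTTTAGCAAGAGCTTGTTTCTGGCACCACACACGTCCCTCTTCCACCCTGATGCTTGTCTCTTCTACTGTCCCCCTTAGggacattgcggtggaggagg
Arg1-202, intron 7: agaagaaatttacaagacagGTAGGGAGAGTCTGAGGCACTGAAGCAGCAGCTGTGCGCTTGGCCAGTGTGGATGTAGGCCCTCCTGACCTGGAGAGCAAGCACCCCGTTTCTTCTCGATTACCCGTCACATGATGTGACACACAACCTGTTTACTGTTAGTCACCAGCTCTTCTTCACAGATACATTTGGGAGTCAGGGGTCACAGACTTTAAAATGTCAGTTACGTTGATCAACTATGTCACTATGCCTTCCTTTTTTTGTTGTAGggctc
Arg1-202 is the one transcript of these 5 that carries its intron whole, 248 bases (chr10:24915780-24916027) from GT to AG. It had 2, 6 and 5 counts in replicates 1, 2 and 3, and 1.17 ± 0.526 TPM (SD, n = 3), more than the coding Arg1-201 with 0.407 TPM from 7, 7 and 11 counts. The other lines each hold 1 end of an intron. Cybb-202 reads through the 5′ splice site of intron 3 (chrX:9457045-9465643) and holds 656 of its 8599 bases, and it had 132.75, 230.86 and 142.95 counts. Ncf1-203 begins inside intron 2 (chr5:134227526-134228074), holds 285 of its 549 bases and had 173.02, 134.28 and 102.94 counts. Ncf4-204 and Ncf4-206 hold opposite ends of the same 217-base intron 8 (chr15:78260755-78260971), with 48 and 94 of its bases, and had 15.8 ± 11.7 and 17.2 ± 6.30 TPM (SD, n = 3). The main coding transcript Ncf4-201 had 18.8 ± 9.80 TPM (SD, n = 3). All 5 models hold intron bases, and 4 of the 5 stop or start inside an intron. Their counts can include reads from any RNA that holds those intron bases. The values do not separate a stable retained intron from RNA that is not yet spliced.

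The quantifications differed more for some of these genes than for most. The second transcript table gave 1.71 times the count of the gene table for Cybb, 3.61 times for Cyba, 1.57 times for Ncf1, 2.41 times for Ncf4, 2.60 times for Rac2, 2.79 times for Nos2 and 3.90 times for Arg1. The median over protein-coding genes was 1.70 times. In TPM, Rac2 had 69.3 ± 11.4 in the second table (SD, n = 3), 4.07 times its gene table value, against a median of 1.30 times over protein-coding genes. The order by mean TPM in that table was Ncf4 with 99.4 ± 34.1, Cyba with 92.1 ± 20.9, Ncf1 with 86.0 ± 22.4, Rac2 with 69.3 ± 11.4 and Cybb with 65.1 ± 23.5 (SD, n = 3), with Arg1 at 3.98 and Nos2 at 0.308. The gap between the oxidase genes and the arginine enzymes was present in both tables, while the order inside the oxidase was not. With protein-coding transcripts alone, the means from the first transcript table were 44.7 TPM for Ncf1, 33.3 for Cyba, 20.0 for Ncf4, 18.6 for Cybb and 16.0 for Rac2.

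Of the 7 genes, 4 oxidase genes were highest in replicate 1 and the 2 arginine enzymes in replicate 3. Counts were scaled between libraries by edgeR's TMM factors to CPM for this comparison, which is between libraries of the same treatment. Cybb had 115, 90.8 and 84.4 scaled CPM in replicates 1, 2 and 3, Cyba had 28.9, 14.6 and 19.2, Ncf1 had 157, 113 and 133, and Ncf4 had 51.8, 29.8 and 34.4. All 4 were highest in replicate 1, where 36.9% of the 15871 genes with a mean count of 10 or more were highest. Rac2 had 24.6, 24.8 and 21.4 scaled CPM and was lowest in replicate 3, with a log2 ratio to the other libraries pooled of -0.21 (counting interval -0.41 to -0.01). Nos2 had 0.322, 0.581 and 1.40 and Arg1 had 0.708, 0.93 and 1.55 scaled CPM. Both were highest in replicate 3, as were 30.5% of those genes.

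As a log2 ratio of replicate 1 to the mean of the other libraries, Cyba was 0.77, Ncf4 0.69, Cybb 0.39, Ncf1 0.35 and Rac2 0.09. The same ratio was -0.81 for Arg1 and -1.62 for Nos2, and the median of all genes was 0.00. For replicate 1 against the other libraries pooled, the counting interval was 0.61 to 0.98 for Cyba and 0.57 to 0.84 for Ncf4. For Nos2 it was -3.28 to -0.17, and for Arg1 it was -1.89 to 0.24, which includes 0. For replicate 3, the pooled ratio of Nos2 was 1.61, with a counting interval of 0.56 to 2.70. These intervals hold counting error only and no error between cultures. The coefficient of variation over the 3 libraries was 8.17% for Rac2, 16.4% for Ncf1, 16.6% for Cybb, 30.0% for Ncf4, 35.0% for Cyba, 41.1% for Arg1 and 73.4% for Nos2, against a median of 14.8% over those genes. In counts of the second transcript table, the log2 ratios for replicate 1 were 0.42 for Cybb, 0.60 for Cyba, 0.55 for Ncf1, 0.70 for Ncf4, -1.06 for Nos2 and -0.19 for Arg1, beside a median of 0.05 over all genes. In these counts 5 of the 7 genes, Rac2 included, were highest in replicate 1, as were 45.4% of all genes.

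**Figure D4:**
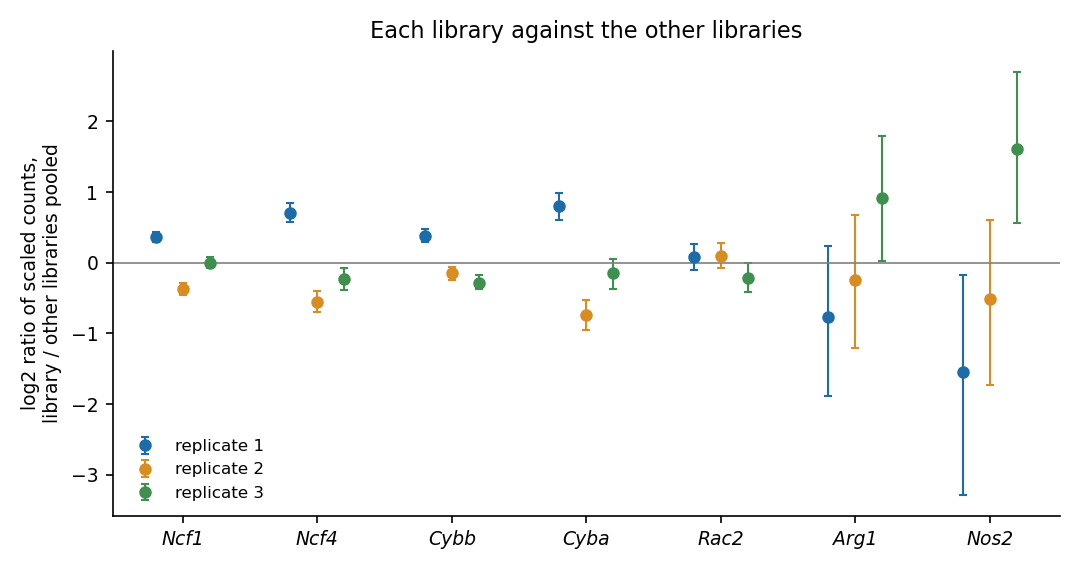
Log2 ratio of the scaled counts of each library to the other libraries pooled, for each gene, with counting intervals at 95% as bars and the line at 0 for no difference. Cyba, Ncf4, Cybb and Ncf1 lie above 0 in replicate 1, Rac2 lies between -0.21 and 0.10 in all libraries, and Nos2 and Arg1 lie highest in replicate 3 with wide intervals.

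Markers of the cells present were read beside these differences. All 10 macrophage markers were detected, against 45.9% of protein-coding genes. Their summed TPM was 2096, 1435 and 1142 in replicates 1, 2 and 3, highest in replicate 1. The same held for all other marker and pathway lists except fibroblast markers and other NOX and DUOX genes. T cell markers, for example, summed to 59.07, 54.43 and 45.29 TPM. In scaled CPM 8 of the 10 macrophage markers were highest in replicate 1. Of genes with a mean count of 10 or more, 36.9% were highest there. Neutrophils use the same oxidase, and 0 of 10 neutrophil markers were detected, with summed TPM of 2.98, 2.70 and 0.48. Ly6g and Elane were at 0 in each library of the gene table. The 6 fibroblast markers summed to 0, 57 and 64 counts, in the same direction as Nos2 and Arg1, and 0 of 6 were detected. The starting amount of RNA and the share of counts outside annotated genes, at 1.162%, 0.459% and 0.351%, also differed between replicates. So did the share of TPM held by RNAs other than short and mitochondrial ones, at 45.8%, 36.0% and 33.5%. TPM is a share of a fixed total, so the TPM of a gene also depends on this share. Among the other markers, Cd28 (44.7 ± 6.44 TPM) and Cd4 (7.97 ± 1.46 TPM) were detected of 8 for T cells, with Cd3e, Cd3g and Lck at 0 in the gene table. The second transcript table gave Cd3d, a chain of the T cell receptor complex, 121.3, 536.2 and 604.9 counts (11.4 ± 6.96 TPM). It gave Cd3g 17.1, 71.7 and 76.5 counts, and both were lowest in replicate 1. The gene table gave Cd3d 1, 0 and 1 counts. Other T cell markers differed from this order in the second transcript table. There Cd8a had 3.17, 3.24 and 3.22 TPM, Cd28 had 37.8, 40.6 and 36.9, and Cd4 had 9.73, 7.81 and 8.72. Cd3e, Lck and Trac had at most 7 counts in a library of that table. Cd22 (1.8 ± 0.62 TPM) was detected of 6 for B cells. Alas2 (7.94 ± 4.2 TPM) and Epor (2.47 ± 1.18 TPM) were detected of 6 for erythroid cells. Batf3 (4.06 ± 2.00 TPM) and Zbtb46 (1.43 ± 0.367 TPM) were detected of 6 for dendritic cells (each SD, n = 3), and 0 of 7 markers of mast cells and eosinophils were detected. The part of the markers, the RNA amount and these shares of counts and TPM in the differences between libraries was not tested. In bulk RNA, fewer cells of a type and less RNA per cell cannot be told apart.

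The genes that act on the oxidase were widely present. All 14 genes of the activator list, which holds kinases and exchange factors among others, were detected, with a median of 22.9 TPM. The share of all protein-coding genes detected was 45.9%. The highest were Dock2, an exchange factor for Rac proteins, with 300 ± 51.4 TPM and Prkcd, a protein kinase C that phosphorylates p47phox, with 272 ± 85.7 TPM. The lowest was Prkca with 2.5 ± 1.25 TPM (each SD, n = 3). All 5 relatives of Rac2 were detected, led by Cdc42 with 59.6 ± 9.24 TPM and Rhoa with 24.3 ± 0.865 TPM, with Rac3 lowest at 2.7 ± 0.727 TPM (each SD, n = 3).

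Other genes of the NOX and DUOX enzymes and their partner proteins were nearly absent from the gene table. Of 9 other NOX and DUOX genes, 1 was detected, against 45.9% of protein-coding genes. This was Noxo1, which encodes the organizer of the NOX1 enzyme, with 1.89 ± 0.25 TPM (SD, n = 3). Nox1 had 0.273 ± 0.107 TPM (SD, n = 3), and Duoxa2 was at 0 in each library. Nox4, chosen for mention after its values were seen, is listed at 0 counts in each library of the gene table and at 11.0, 11.1 and 10.8 TPM in the second transcript table, where 3 of the 9 genes were detected.

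On the arginine side, 5 were detected of 10 genes that encode the other nitric oxide synthases, proteins that bind them or enzymes and a regulator of cofactor synthesis. This is near the 45.9% of all protein-coding genes. The highest were Pts, an enzyme of tetrahydrobiopterin synthesis, with 30.5 ± 6.73 TPM and Nosip, which encodes a nitric oxide synthase interacting protein, with 19.8 ± 3.85 TPM (each SD, n = 3). The lowest in the gene table was Nos1, the neuronal synthase, listed at 0, 0 and 0.01 TPM. The tables differ for this gene, since the second transcript table gave it 69.8, 348.7 and 358.6 counts and 0.3, 1.23 and 1.47 TPM. There Nos3, the endothelial synthase, was lowest with 0.0261 TPM. Of 11 genes of arginine transport and metabolism, 6 were detected, and 9 in the second transcript table, against 45.9% and 55.1% of protein-coding genes. Slc3a2, the heavy chain of several amino acid transporters, had 84.5 ± 31.1 TPM and Odc1, which turns ornithine into putrescine, had 36.2 ± 16.1 TPM (each SD, n = 3). Otc, a urea cycle enzyme of liver, was at 0 in each library of the gene table.

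Of 9 genes of alternative activation, the state with which Arg1 is usually grouped, 3 were detected, and 4 in the second transcript table. The shares of protein-coding genes were 45.9% and 55.1%. Ccl24, detected only in the second transcript table, had 6.2 ± 1.35 TPM there and 0.113 ± 0.0651 TPM in the gene table (each SD, n = 3). In the gene table, Mrc1, the mannose receptor, had 118 ± 16.6 TPM and Il4ra, a receptor chain for interleukin-4, had 47.8 ± 10.9 TPM (each SD, n = 3). Ccl17 was at 0 in each library of that table. The list median was 0.29 TPM. The transcription factors known at these genes were all detected, 12 of 12, with a median of 45.2 TPM. Irf8 had 130 ± 26.9 TPM and Irf2 had 121 ± 17.7 TPM, both interferon regulatory factors, and Cebpa was lowest with 10.2 ± 4.24 TPM (each SD, n = 3).

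Genes that supply NADPH, and genes that remove superoxide and peroxide, were mostly detected, against 45.9% of protein-coding genes. Of 7 NADPH supply genes, 6 were detected, led by Pgd with 97.4 ± 13.9 TPM and Taldo1 with 19.3 ± 3.20 TPM, both of the pentose phosphate pathway, with Me1 lowest at 0.193 ± 0.0802 TPM (each SD, n = 3). Of 11 genes for superoxide and peroxide removal, 10 were detected, led by Prdx1, a peroxiredoxin, with 90.3 ± 16.5 TPM and Gpx1, a glutathione peroxidase, with 39.5 ± 20.2 TPM (each SD, n = 3). Sod3, the extracellular superoxide dismutase, was at 0 in each library of the gene table.

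**Figure D5:**
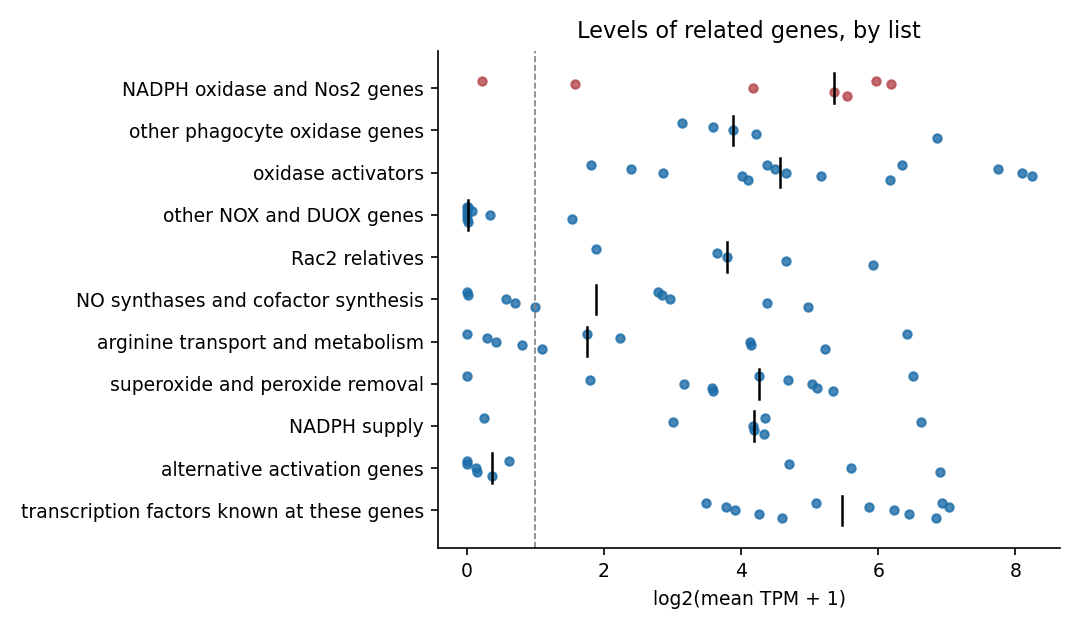
Mean level over 3 libraries, as log2(mean TPM + 1), of each gene of the 7 described (red) and of 10 related lists (blue), with the list median as a line and a mean of 1 TPM dashed. The oxidase, activator and transcription factor lists lie mostly to the right of the dashed line, and most other NOX and DUOX genes lie near 0.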

How the data were processed

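Total RNA-seq of chromatin RNA was deposited for 3 libraries of 1 group. Per the file headers, the authors deposited gene and transcript tables with estimated counts and TPM, a second transcript table with estimated counts and TPM, and, as another column, the SD of the count from read assignment. Per the deposited readme files, the values were made on mm10 with GENCODE M21, the first set from transcriptome alignments and the second directly from the reads. The sources used here do not give the programs or the strand setting. Estimated counts on annotated genes summed to 15698066, 16005795 and 14386725, so 3 counts are 0.191, 0.187 and 0.209 CPM.

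Gene values of the second table are sums over transcripts. Levels between genes were compared in TPM, as log2(TPM + 1), and levels between libraries as counts scaled with TMM (edgeR 4.0.16, R 4.3.3). Differences of 4 gene pairs were tested with two-sided exact sign-flip permutation tests in Python 3.11.15. Alternatives were the second table, TPM rescaled without short RNAs, a pseudocount of 0.1, CPM, DESeq2 1.42.0 size factors, plain CPM, other filters (none, or a mean count of 50), detection at 0.5 or 5 TPM, and leaving out each replicate. Sums of coding transcripts were added after the data were seen. Of related lists, the text names every other phagocyte oxidase gene except 1 that is not reported here, the 2 highest and the lowest genes of each pathway list, and the detected markers of other cell types. The members and lists were chosen with earlier results of these data known.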

Additional observations from a re-analysis of the deposited data

How the results depend on the processing

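Detection of 6 of the 7 genes was the same with rescaled TPM, in the second transcript table, at 0.5 TPM and without any 1 replicate, and was 5 of 7 at 5 TPM and with coding transcripts only. Cybb minus Cyba reversed to -0.53 in the second transcript table, -0.80 with protein-coding transcripts only and -0.76 with the main coding transcript only, and ranged from 0.04 to 0.33 without 1 replicate. The lower bound was reached without replicate 2. Ncf1 minus Ncf4 reversed to -0.18 in the second transcript table, was larger with protein-coding transcripts only (1.2), with the main coding transcript (0.83) and in log2(CPM + 1) (1.80), and ranged from 0.17 (without replicate 3) to 0.38 (without replicate 1). Rac2 minus Rac1 was -0.02 ± 0.06 (SD, n = 3) in log2(CPM + 1), where length is not divided out, with signs that differed between libraries. It was 0.27 in the second transcript table and 0.25 with the main coding transcript, and ranged from 0.53 to 0.73 without 1 replicate. Nos2 minus Arg1 stayed negative in every alternative run, from -2.97 with a pseudocount of 0.1 to -0.25 in log2(CPM + 1). The size of this difference depends on the pseudocount, because the values of these genes are low. Apart from the scale of the values, the cause of the reversals was not tested. The genes highest in replicate 3 numbered 2, but 1 in counts of the second transcript table and 0 with a mean count of 50, a filter that removes Nos2 and Arg1. The shares of all genes highest there were 23.7% and 32.8%. With plain CPM, 14.6% of all genes were highest in replicate 3 and the median ratio of all genes there was -0.13. Rescaling without short RNAs moved the means to 116 TPM for Cybb, 101 for Cyba, 184 for Ncf1, 155 for Ncf4, 44.5 for Rac2, 5.48 for Arg1 and 0.474 for Nos2, and left 6 of 7 detected. In the second transcript table, detected markers numbered 1 for neutrophils (Cxcr2), 4 for T cells (Cd3d and Cd8a added), 1 for fibroblasts (Thy1), 1 for mast cells and eosinophils (Cpa3) and 4 for dendritic cells, against 0, 2, 0, 0 and 2. At 5 TPM, detected genes fell to 3 for nitric oxide synthases and cofactor and to 0 for other NOX and DUOX genes and for B cell, erythroid and dendritic cell markers. Depth limits Nos2 and Arg1, which had at most 21 counts in a library of the gene table.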
